A study of Mus musculus with 24 samples.

Results

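The 10 genes described here encode enzymes and nuclear receptors of bile acid and oxysterol synthesis. They are Cyp7a1, Cyp8b1, Cyp27a1, Cyp7b1, Cyp46a1, Hsd3b7, Baat, Slc27a5, Nr1h4 and Nr0b2, and they were taken by symbol from the 24015 gene symbols of the deposited count table, where all 10 have a line. Furan livers came from female B6C3F1 mice given furan daily by gavage for 21 days at 8 mg/kg, with corn oil as vehicle, and control livers from females given the oil only. All mice were bought at 5-6 weeks of age, and livers were collected 4 h after the final gavage. From each of them came a fresh-frozen piece and pieces fixed in formalin for 18 h or for 3 wk and embedded in paraffin (FFPE). Fresh-frozen libraries analysed here came from 3 furan animals (41, 43 and 44) and 3 control animals (02, 04 and 06). The labels also name a fresh-frozen library of furan animal 42 and of control animal 03, which no column of the count table matched, and both were not analysed here. Each FFPE time has libraries from 4 furan animals (41 to 44) and 4 control animals (02, 03, 04 and 06). All libraries were selected on poly(A), but frozen and FFPE RNA were extracted with different kits and amounts of tissue, so fixation and extraction cannot be told apart.

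Hepatocytes turn cholesterol into bile acids along a classical route, which CYP7A1 opens, and an alternative route, which starts with oxidation of the sterol side chain by CYP27A1 and continues through CYP7B1. CYP8B1 decides how much cholic acid is made, HSD3B7 acts on the intermediates of both routes, and the products are activated by the ligase SLC27A5 and joined to taurine by BAAT. Bile acids bind the nuclear receptor FXR (Nr1h4), which induces SHP (Nr0b2), a corepressor that lowers transcription of Cyp7a1 and Cyp8b1. CYP46A1, which hydroxylates the cholesterol side chain to a diffusible oxysterol, is known mainly from neurons of the brain.

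The promoters of Cyp46a1 and Cyp27a1 are printed because these were the members that passed a furan comparison, and that of Nr0b2 because it stood furthest above its control level, with 1 control animal apart from the rest. Each is the plus strand of GRCm38.p6 from 250 bases before to 50 bases after the RefSeq start site, 5′ to 3′, with capitals for matches to the motifs searched.
Cyp46a1 chr12:108334066-108334365: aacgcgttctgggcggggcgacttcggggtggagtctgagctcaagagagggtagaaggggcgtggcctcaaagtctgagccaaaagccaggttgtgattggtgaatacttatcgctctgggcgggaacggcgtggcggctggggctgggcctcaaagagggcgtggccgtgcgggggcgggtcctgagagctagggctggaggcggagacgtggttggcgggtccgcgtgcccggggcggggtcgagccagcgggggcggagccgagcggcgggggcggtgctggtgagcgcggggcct
Cyp27a1 chr1:74713285-74713584: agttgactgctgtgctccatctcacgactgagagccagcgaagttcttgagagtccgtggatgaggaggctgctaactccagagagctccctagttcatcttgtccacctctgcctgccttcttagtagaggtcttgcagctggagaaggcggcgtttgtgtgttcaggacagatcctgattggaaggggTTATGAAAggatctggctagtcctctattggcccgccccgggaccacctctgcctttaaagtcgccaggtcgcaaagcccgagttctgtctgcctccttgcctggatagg
Nr0b2 chr4:133553126-133553425: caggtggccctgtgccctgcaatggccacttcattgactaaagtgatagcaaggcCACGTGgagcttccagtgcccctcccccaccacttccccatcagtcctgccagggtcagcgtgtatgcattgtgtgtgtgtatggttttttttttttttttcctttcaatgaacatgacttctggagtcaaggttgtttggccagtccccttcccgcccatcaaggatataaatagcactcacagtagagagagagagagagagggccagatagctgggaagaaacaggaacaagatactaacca
Of these bases, 70.3% were G or C in the Cyp46a1 promoter, more than in 90.9% of all 32851 RefSeq promoters of this length, against 55.3% in Cyp27a1 and 49.7% in Nr0b2. Motifs were searched on both strands. The motif TTATGNAA, in which N is any base, was searched as a loose form of the D-box of clock factors such as DBP. It had a match in the Cyp27a1 window (ttatgaaa) and in 3.38% of all promoters. Binding of such factors to this match was not tested. The E-box CACGTG had a match in the Nr0b2 window and in 7.15% of all promoters. The Nr1h4 window (chr10:89506609-89506908) is that of a start site inside the gene, which spans 89454234 to 89533585 on the minus strand in GENCODE M21. It held AGGTCA, a half-site of many nuclear receptors, which occurs in 16.3% of all promoters. The longer motif CAAGGTCA contains that half-site and matched in none of the members (1.56% of all promoters). The AP-1 motif TGANTCA matched in none either (7.81%). The Cyp46a1 window held no match to any of the 5 motifs. RefSeq promoters were matched for 6 of the 10 genes, the others being Hsd3b7 and Cyp8b1, with no match to a motif. Cyp7a1, Cyp7b1, Baat and Slc27a5 were not matched.

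A fresh-frozen library held 33101755 to 58048387 counts, an FFPE 18 h library 16269854 to 22494012 counts and an FFPE 3 wk library 3666173 to 11780691 counts. Every library had counts for all 10 genes, the lowest being 85, and all 10 passed the filter on low counts in every comparison. The ribosomal precursor Rn45s held 4.85% to 37.3% of the counts in FFPE libraries, the highest being control animal 06 in FFPE 18 h, and 0.129% to 0.520% in fresh-frozen libraries. Levels are given as CPM, counts divided by library totals that were scaled with TMM over all 22 libraries. Summed CPM of 8 hepatocyte markers was 137097 to 145967 in furan and 137272 to 142123 in control fresh-frozen livers. The pieces of a liver are not independent of each other, so the 3 furan comparisons are repeat measurements on shared animals.

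Cyp46a1 fell with furan in all 3 kinds of piece, to 0.433, 0.394 and 0.387 of its fitted control level in fresh-frozen, FFPE 18 h and FFPE 3 wk livers. Cyp27a1, which opens the alternative route, fell to 0.729 in fresh-frozen (n = 3 furan and 3 control livers) and 0.787 in FFPE 18 h livers (n = 4 and 4). The other 8 genes did not pass a furan comparison. Passing means an adjusted p (Benjamini-Hochberg over all genes tested, edgeR) under 0.05. Thus 2 of 10 members fell and none rose in fresh-frozen livers, where 15.7% of all 13794 genes tested passed (7.47% fell and 8.21% rose). In FFPE 18 h livers 2 of 10 fell and none rose, where 8.39% of 12832 genes passed (4.47% fell and 3.92% rose). In FFPE 3 wk livers 1 of 10 fell and none rose, where 0.821% of 12064 genes passed (0.522% fell and 0.298% rose). An unadjusted p under 0.05 was reached by 3, 4 and 4 members, of which only Nr0b2 at 18 h was above 0. Over all genes it was reached by 4410 of 13794, 3003 of 12832 and 1318 of 12064. The median log2 fold change of the 10 was -0.16 in fresh-frozen livers, -0.17 after 18 h and -0.29 after 3 wk of fixation, beside medians of -0.01, -0.01 and 0.02 over all genes tested. Bulk RNA cannot tell fewer cells of a type from less RNA per cell.

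**Figure D1:**
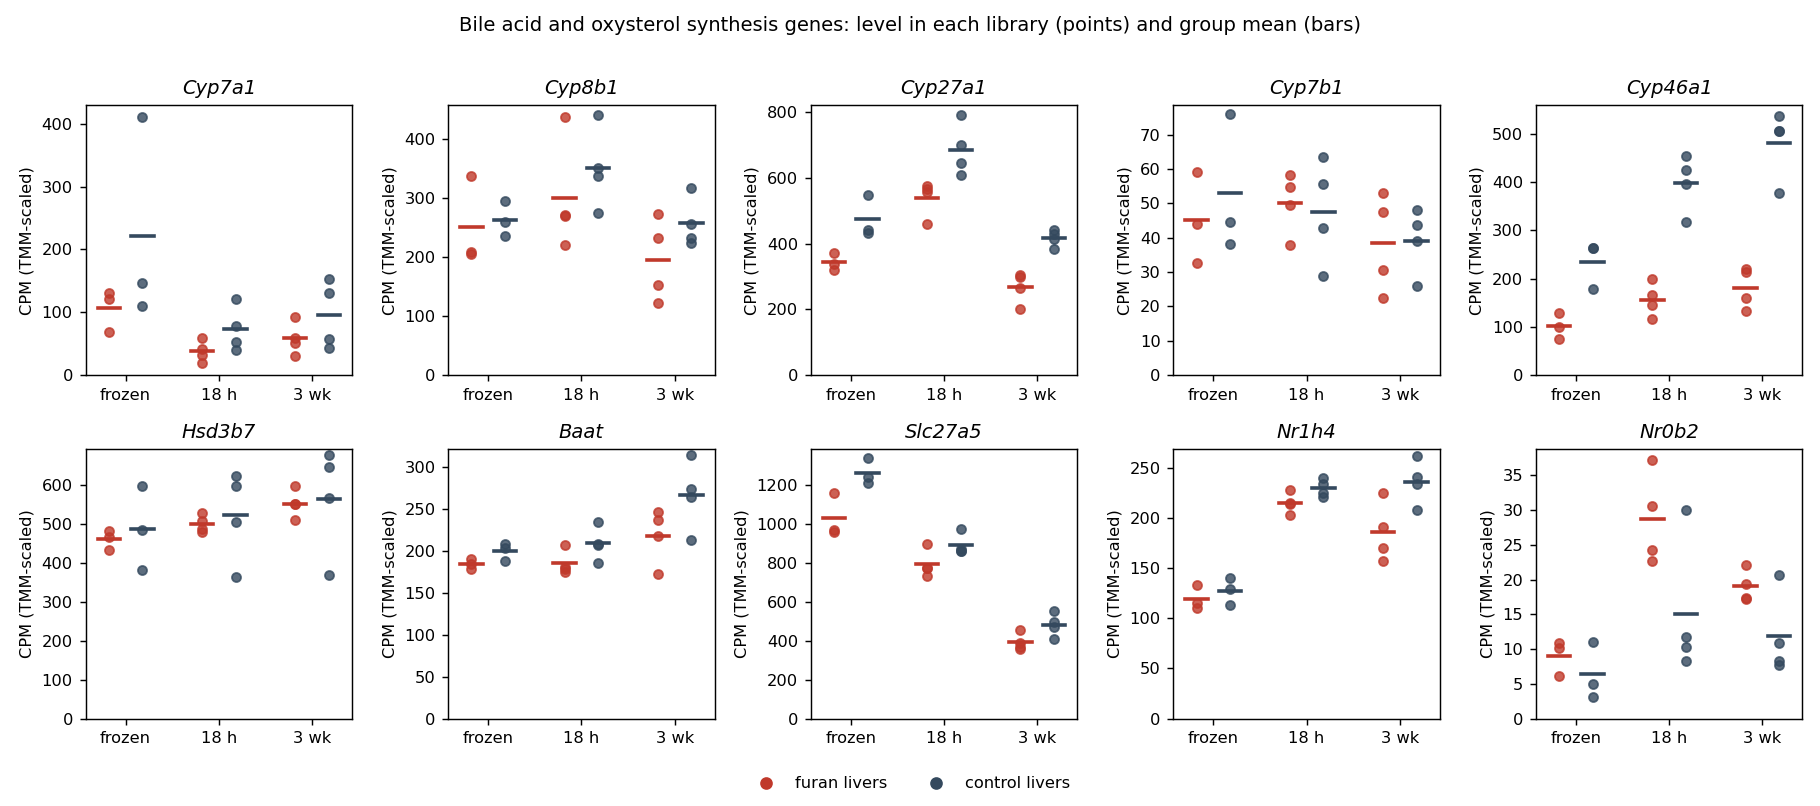
TMM-scaled CPM (vertical axes, from 0) of the 10 genes in each library (points), with group means (bars), for fresh-frozen, FFPE 18 h and FFPE 3 wk pieces; furan is left of control in each pair. Cyp46a1 and Cyp27a1 are lower in every furan library than in any control library of the same kind of piece, while the points of most other genes overlap.

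Cyp7a1 encodes the rate-limiting enzyme of the classical route, and its SD over control animals exceeded the difference between the furan and control means in every kind of piece. It lay at 69.1, 130.2 and 122 CPM in fresh-frozen furan animals 41, 43 and 44, against 110.4, 146 and 410.1 CPM in control animals 02, 04 and 06. In FFPE 18 h pieces furan animals 41 to 44 had 20.1, 58.6, 42.3 and 32.5 CPM and control animals 02, 03, 04 and 06 had 39.2, 78.9, 52.6 and 121 CPM. The FFPE 3 wk values were 30.5, 93.1, 58.6 and 51.8 CPM in furan and 57.0, 131, 42.7 and 154 CPM in control animals. Control animal 06 was the highest and furan animal 41 the lowest library of all 3 kinds of piece, and the groups overlapped in each. The log2 fold change was -1.05 ± 0.47 (fitted value ± SE) for fresh-frozen livers, -0.92 ± 0.33 at 18 h and -0.68 ± 0.37 at 3 wk of fixation, with adjusted p of 0.166, 0.110 and 0.574. Without control animal 06 the fresh-frozen value was -0.25 (adjusted p = 0.534), and without furan animal 41 it was -0.80 (adjusted p = 0.380). In FFPE 18 h livers Cyp7a1 passed in 2 of 17 alternatives. These were no filter on low counts (adjusted p = 0.0417) and the fit without control animal 06 and furan animal 42 (adjusted p = 0.0426). That pair had most Rn45s and also the highest Cyp7a1 of their groups. Cyp7a1 passed in no FFPE 18 h fit with 1 library left out (adjusted p from 0.0532 to 0.240), being -0.57 without control animal 06 alone. Nor did it pass there with DESeq2 (adjusted p = 0.221), robust dispersions (0.308) or 1 model of all 6 groups (0.592).

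Cyp8b1, the hydroxylase of cholic acid synthesis, ranked the furan animals differently from Cyp7a1. Its level was 338, 208 and 206 CPM in fresh-frozen furan and 296, 259 and 235 CPM in control libraries. Furan animal 41, the lowest for Cyp7a1, was the highest for Cyp8b1 among furan animals in every kind of piece, at 437 CPM in FFPE 18 h and 273 CPM in FFPE 3 wk. The log2 fold change of Cyp8b1 was -0.06 ± 0.19, -0.22 ± 0.19 and -0.37 ± 0.21 in fresh-frozen, FFPE 18 h and FFPE 3 wk livers, and none passed (adjusted p = 0.857, 0.514 and 0.593).

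Cyp27a1 encodes the mitochondrial sterol hydroxylase of the side chain. Fresh-frozen furan libraries, in the same order of animals, held 372, 337 and 319 CPM and control libraries 547, 441 and 432 CPM. FFPE 18 h furan libraries held 574, 565, 556 and 460.3 CPM, against 791, 699, 645 and 608 CPM in control libraries. In FFPE 3 wk pieces the values were 266, 303, 299 and 202 CPM with furan and 439.8, 430.2, 382 and 413 CPM in controls. Every furan value lay below every control value of the same kind of piece, as it did for 19.5%, 7.77% and 4.78% of all genes tested in fresh-frozen, FFPE 18 h and FFPE 3 wk pieces. Cyp27a1 fell by 0.46 on the log2 scale (SE 0.11) in fresh-frozen livers (adjusted p = 0.0311) and by 0.35 on the log2 scale (SE 0.10) in FFPE 18 h livers (adjusted p = 0.0412). In FFPE 3 wk livers it stood at -0.61 ± 0.14 and did not pass (adjusted p = 0.0536), although it did with DESeq2 (adjusted p = 0.00154). At 3 wk it passed in 6 of 17 alternatives, and in 1 of the 8 fits with 1 library left out (adjusted p from 0.0412 to 0.200). The fresh-frozen call was lost without control animal 02 or furan animals 43 or 44 (adjusted p = 0.0633, 0.105 and 0.106). The FFPE 18 h call was lost without any of control animals 02, 03 and 04 or furan animals 42, 43 and 44 (adjusted p from 0.0592 to 0.130), and both were lost in 1 model of all 6 groups (adjusted p = 0.131 and 0.206).

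Cyp7b1, the oxysterol hydroxylase of the next step, overlapped between furan and control in every kind of piece. It lay at 32.7 to 59.3 CPM in furan and 38.2 to 75.9 CPM in control fresh-frozen libraries. Its log2 fold changes were -0.22 ± 0.28, 0.07 ± 0.20 and 0.01 ± 0.29 in fresh-frozen, FFPE 18 h and FFPE 3 wk livers (adjusted p = 0.638, 0.877 and 0.997). Hsd3b7, the dehydrogenase that both routes share, had its lowest and highest values among controls, with 432 to 481 CPM in furan and 381 to 597 CPM in control fresh-frozen libraries. The same held in FFPE 18 h (479.7 to 527 CPM in furan, 364 to 622 CPM in control) and FFPE 3 wk libraries (509.8 to 596 and 368 to 677 CPM), and control animals 02, 04 and 06 kept that order from high to low in all 3 kinds of piece. Its log2 fold changes lay between -0.07 and -0.01, and none passed. In GENCODE M21 the Hsd3b7 transcript overlaps 9430064I24Rik on the opposite strand over 44.4% of its length and Gm49388 on the same strand over 93.9%. Whether these overlapping genes were in the annotation used for counting was not checked. The strand setting and treatment of shared reads were not given, so the level of Hsd3b7 is uncertain.

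Cyp46a1 was the member with the largest change in each kind of piece. Fresh-frozen furan animals 41, 43 and 44 had 128, 74.6 and 100.0 CPM, and control animals 02, 04 and 06 had 179.6, 263 and 264 CPM. In FFPE 18 h pieces furan animals 41 to 44 had 199, 115, 145 and 167 CPM, against 318, 396, 454 and 425 CPM in control animals 02, 03, 04 and 06. The FFPE 3 wk pieces of the same animals held 220.1, 132, 159.9 and 215 CPM with furan and 379, 506, 537 and 506 CPM in controls. No furan library reached the lowest control library of its kind of piece, which was animal 02 each time, and furan animals 41, 44 and 43 kept that order from high to low. Cyp46a1 fell by 1.21 on the log2 scale (SE 0.21) in fresh-frozen (adjusted p = 0.0104), by 1.34 on the log2 scale (SE 0.15) in FFPE 18 h (adjusted p = 0.000219) and by 1.37 on the log2 scale (SE 0.17) in FFPE 3 wk livers (adjusted p = 0.00117). By p it ranked 520 of 13794 genes in fresh-frozen, 43 of 12832 in FFPE 18 h and 8 of 12064 in FFPE 3 wk livers. It passed under every alternative run, including each library left out and 1 model of all 6 groups. No stretch of 50 nt of its transcript is shared with another GENCODE M21 gene.

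Neuron markers other than Syt1 lay under 2 CPM in every fresh-frozen library, furan and control. Summed CPM of 8 neuron markers was 23.7 to 30.1 in furan and 34.6 to 41.4 in control fresh-frozen livers, of which Syt1 alone made up 21.3 to 27.3 CPM in furan and 31.2 to 38.5 CPM in control livers. Syt1 fell by 0.51 on the log2 scale (SE 0.12) in fresh-frozen livers (adjusted p = 0.0240), where 7.47% of all genes tested fell. Snap25 had no count in either group and Tubb3 none in controls, and Rbfox3, which marks mature neurons, lay at 0.419 to 0.618 CPM in furan and 0.554 to 0.611 CPM in control livers. The 8 neuron markers summed to 14.96 to 24.67 CPM in furan and 21.85 to 24.64 CPM in control FFPE 18 h livers, and to 20.8 to 32.1 and 16.8 to 53.0 CPM at 3 wk. Among FFPE 3 wk libraries Map2 reached 7.30 CPM with furan and Eno2 8.77 and Rbfox3 6.01 CPM in controls. No neuron marker passed with edgeR at either FFPE time. DESeq2 called Syt1 lower at 18 h and no neuron marker at 3 wk. Summed CPM of 8 pericentral hepatocyte markers was 8267 to 8654 in furan and 13163 to 16082 in control fresh-frozen livers, 6912 to 7692 and 10082 to 11184 in FFPE 18 h, and 6067 to 6712 and 8727 to 9708 in FFPE 3 wk livers. Of these 8 markers 6, 5 and 2 fell in fresh-frozen, FFPE 18 h and FFPE 3 wk livers, where 7.47%, 4.47% and 0.522% of all genes tested fell. Summed CPM of 8 periportal hepatocyte markers was 5530 to 5917 in furan and 6291 to 7764 in control fresh-frozen livers. It was 4639 to 5085 and 5001 to 5402 in FFPE 18 h, and 5558 to 6683 and 6149 to 7287 in FFPE 3 wk livers. Of the periportal markers 1 rose and 1 fell with edgeR in fresh-frozen and in FFPE 18 h livers, and 0 passed at 3 wk. Of all genes tested 15.7%, 8.39% and 0.821% passed in either direction. An unadjusted p under 0.05 was reached by 2, 5 and 5 of the 8 periportal and 7, 6 and 5 of the 8 pericentral markers. Over all genes it was reached by 4410 of 13794, 3003 of 12832 and 1318 of 12064. DESeq2 called 3 periportal markers higher and 1 lower at 18 h, and 2 lower at 3 wk (Gls2 and Ass1). Sinusoidal endothelial markers summed to 227 to 280.3 CPM in furan and 341 to 349.6 CPM in control fresh-frozen livers, 281 to 338 and 389 to 414 CPM in FFPE 18 h, and 349 to 390.2 and 420.4 to 516 CPM in FFPE 3 wk livers. Of these endothelial markers 5, 2 and 0 of 8 fell with edgeR. At 3 wk 2 had an unadjusted p under 0.05 (1318 of 12064 genes over all) and DESeq2 called 1. The part of these markers in the falls of Cyp46a1 and Cyp27a1 was not tested.

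**Figure D2:**
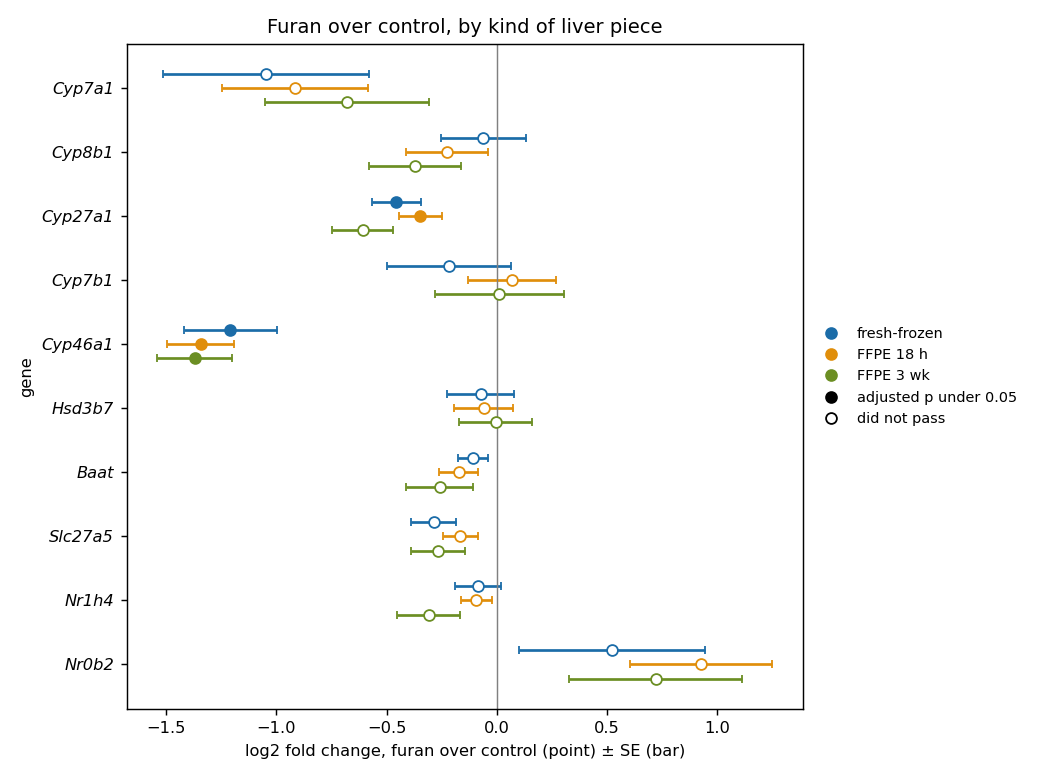
Fitted log2 fold change of furan over control (horizontal axis; points, bars are ± SE) for each gene in fresh-frozen, FFPE 18 h and FFPE 3 wk livers; filled points have an adjusted p under 0.05. Cyp46a1 is filled in all 3 kinds of piece, between -1.21 and -1.37, and Cyp27a1 in 2, while Nr0b2 is the member furthest above 0.

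Neither enzyme of conjugation passed a furan comparison. Slc27a5, the ligase that activates bile acids with coenzyme A, had 1156, 956 and 966 CPM in fresh-frozen furan and 1209, 1237 and 1335 CPM in control libraries. The groups did not overlap there (19.5% of all genes were lower without overlap), but overlapped in both FFPE times. Its log2 fold change was -0.29 ± 0.10 in fresh-frozen livers (adjusted p = 0.0931), -0.16 ± 0.08 in FFPE 18 h (adjusted p = 0.239) and -0.27 ± 0.12 in FFPE 3 wk (adjusted p = 0.425). It passed in fresh-frozen livers with DESeq2 (adjusted p = 0.0343) and without furan animal 41 (adjusted p = 0.0472). Baat, which joins bile acids to taurine, lay at 179 to 191 CPM in furan and 188 to 209 CPM in control fresh-frozen libraries. Its log2 fold changes were -0.11 ± 0.07, -0.17 ± 0.09 and -0.26 ± 0.15 in fresh-frozen, FFPE 18 h and FFPE 3 wk livers, and none passed (adjusted p = 0.334, 0.262 and 0.609).

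Of the receptors, Nr1h4 (FXR) overlapped between furan and control in every kind of piece. It lay at 111 to 133 CPM in furan and 114 to 140.1 CPM in control fresh-frozen libraries, with a log2 fold change of -0.08 ± 0.10 (adjusted p = 0.617). The FFPE values were -0.09 ± 0.07 at 18 h (adjusted p = 0.472) and -0.31 ± 0.14 at 3 wk (adjusted p = 0.443, and 0.0315 in 1 model of all 6 groups).

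Nr0b2 (SHP) was the member furthest above 0 in all 3 furan comparisons, and control animal 02 stood apart from the other controls. Fresh-frozen furan animals 41, 43 and 44 had 10.9, 6.18 and 10.1 CPM, against 11.1, 3.10 and 4.97 CPM in control animals 02, 04 and 06. The FFPE 18 h pieces of furan animals 41 to 44 had 30.5, 24.3, 22.6 and 37.1 CPM and those of control animals 02, 03, 04 and 06 had 29.9, 10.3, 8.33 and 11.7 CPM. FFPE 3 wk pieces held 17.3, 22.1, 19.4 and 17.4 CPM with furan and 20.6, 8.29, 7.69 and 10.8 CPM in controls. Control animal 02 lay above the fresh-frozen furan libraries and within the range of the FFPE furan libraries, and every other control library lay below every furan library of its kind. The log2 fold change was 0.52 ± 0.42 in fresh-frozen (adjusted p = 0.436), 0.93 ± 0.32 in FFPE 18 h (adjusted p = 0.0999) and 0.72 ± 0.39 in FFPE 3 wk livers (adjusted p = 0.567), and none passed. Without control animal 02 it was 1.18 (adjusted p = 0.0483), 1.52 (adjusted p = 0.000964) and 1.14 (adjusted p = 0.233) in that order of pieces. Each library was left out in turn, and these fits are given because the values of animal 02 stood apart, so they are descriptions.

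**Figure D3:**
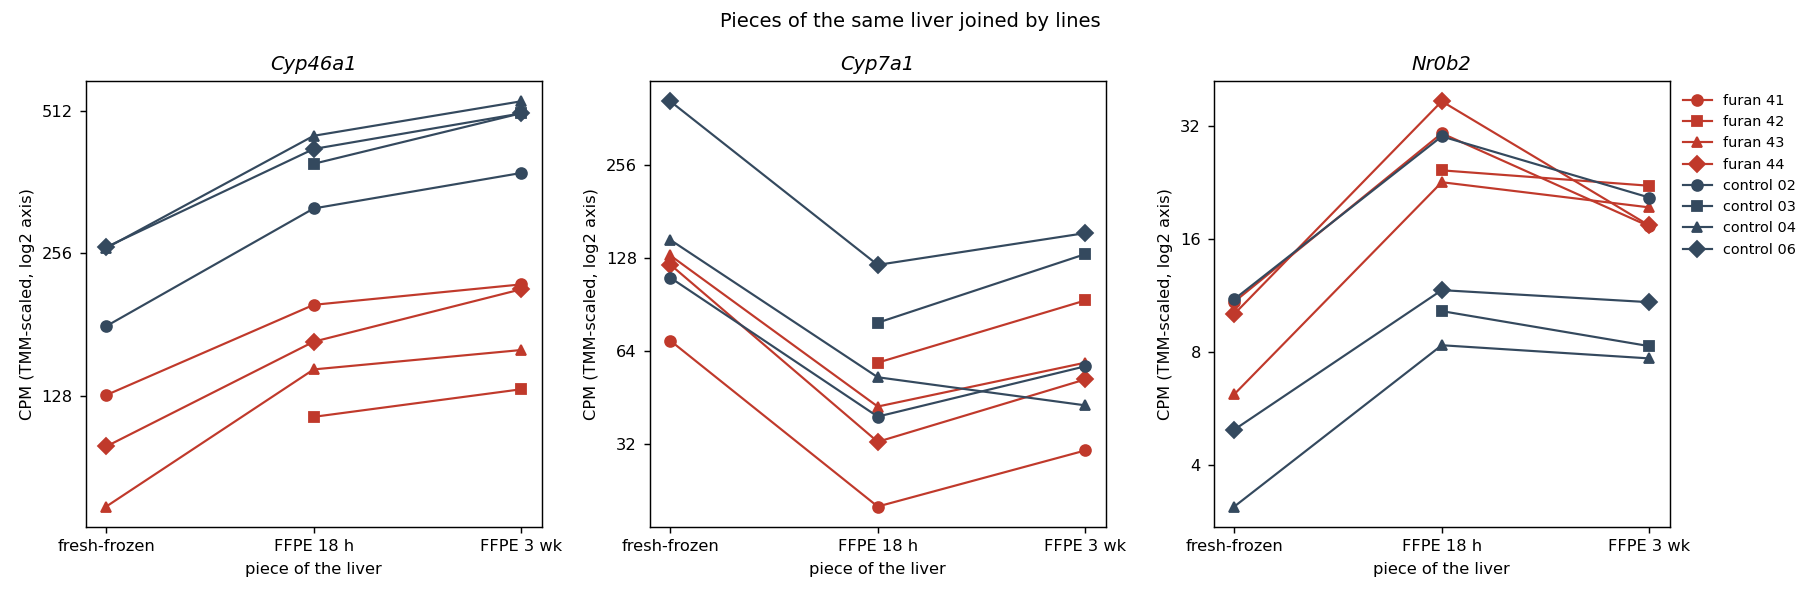
TMM-scaled CPM (vertical axes, log2 scale) of Cyp46a1, Cyp7a1 and Nr0b2 in the fresh-frozen, FFPE 18 h and FFPE 3 wk pieces (horizontal axis), with the pieces of 1 liver joined by a line. The furan and control lines of Cyp46a1 are separate throughout, control animal 06 is the highest line of Cyp7a1, and control animal 02 runs with the furan lines of Nr0b2.

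The order of the animals was compared between pieces of the same livers. Among furan animals 41, 43 and 44, the FFPE 18 h pieces had the order of the fresh-frozen pieces for 6 of 10 members, the exceptions being Hsd3b7, Slc27a5, Nr1h4 and Nr0b2. Among control animals 02, 04 and 06 it was the same for 8 of 10, Cyp46a1 and Nr1h4 being the exceptions. With FFPE 3 wk pieces added, the order was the same in all 3 kinds of piece for 3 of 10 members among furan animals and 3 of 10 among control animals. Orders were not counted over all genes, so these counts only describe the members and cannot be set against other genes. Cyp7a1 differed 1.89-fold between the highest and lowest fresh-frozen furan animals and 3.71-fold between controls, and Nr0b2 1.76-fold between furan animals and 3.56-fold between controls.

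Genes were then ranked by how closely their log2 CPM followed 3 members over the 22 libraries, after the mean of each kind of piece was removed. These libraries come from 8 animals, so the correlations describe the libraries and share the furan difference. Closest to Cyp7a1 among 11870 genes were Shprh (Pearson r = 0.887), the clock gene Per1 (r = 0.871), Nmrk1 (r = 0.870) and the periportal gene Sds (r = 0.867). Closest to Cyp7b1 were Derl3 (r = 0.752), the clock output repressor Nfil3 (r = 0.734), Sdc4 (r = 0.719) and Cyp2c44 (r = 0.708). Nr0b2 was closest to Ablim3 (r = 0.792), Dusp6 (r = 0.791), the immediate early factor Egr1 (r = 0.768) and Rbm28 (r = 0.762).

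Genes for other steps of bile acid synthesis included 1 that rose and 1 that fell, of 11 tested, in both fresh-frozen and FFPE 18 h livers, where 15.7% and 8.39% of all genes passed. An unadjusted p under 0.05 was reached by 5 of the 11 in fresh-frozen and 4 in FFPE 18 h livers, beside 4410 of 13794 and 3003 of 12832 genes over all. DESeq2 called 1 higher and 2 lower in both, the additional gene being Amacr, a racemase of the side chain. None passed in FFPE 3 wk livers, where 4 had an unadjusted p under 0.05 (1318 of 12064 genes over all) and DESeq2 called Amacr lower. Acox2, the peroxisomal oxidase that shortens the side chain, averaged 219 CPM in furan and 169 CPM in control fresh-frozen livers, and rose by 0.38 ± 0.09 on the log2 scale (adjusted p = 0.0246) and, in FFPE 18 h, by 0.40 ± 0.10 (adjusted p = 0.0243). Slc27a2, an acyl-CoA synthetase related to Slc27a5, fell by 0.40 on the log2 scale (SE 0.11) in fresh-frozen (adjusted p = 0.0401) and by 0.45 on the log2 scale (SE 0.10) in FFPE 18 h livers (adjusted p = 0.0141). Cyp39a1, which like Cyp7b1 hydroxylates oxysterols, stood at -0.32 ± 0.11 in fresh-frozen livers and did not pass (adjusted p = 0.0892). The reductase gene Akr1d1 stood at 0.01 ± 0.08 (adjusted p = 0.932).

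Among 14 regulators of bile acid synthesis, 2 fell in fresh-frozen livers and 1 rose and 1 fell in FFPE 18 h livers, beside 15.7% and 8.39% of all genes that passed in either direction. None of the 14 passed in FFPE 3 wk livers, where 4 had an unadjusted p under 0.05 (1318 of 12064 genes over all) and DESeq2 called 0. Nr1i3 (CAR), a xenobiotic receptor, fell by 0.70 on the log2 scale (SE 0.15) in fresh-frozen (adjusted p = 0.0199) and by 0.74 on the log2 scale (SE 0.13) in FFPE 18 h livers (adjusted p = 0.00372). Rxra, the partner receptor of FXR, fell by 0.31 on the log2 scale (SE 0.08) in fresh-frozen livers (adjusted p = 0.0351). Hnf4a, an activator of Cyp7a1 and Cyp8b1, rose by 0.34 ± 0.07 on the log2 scale in FFPE 18 h livers (adjusted p = 0.0124). Fgfr4 and its coreceptor Klb, which carry the intestinal FGF15 signal that represses Cyp7a1, stood at 0.00 ± 0.07 and -0.05 ± 0.08 in fresh-frozen livers and did not pass (adjusted p = 0.991 and 0.686). Nr5a2 (LRH-1), the receptor on which SHP acts, stood at 0.06 ± 0.07 (adjusted p = 0.616).

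Genes that FXR induces in hepatocytes did not pass with edgeR in any kind of piece. Of 6 listed, 4, 5 and 4 were tested in fresh-frozen, FFPE 18 h and FFPE 3 wk livers. In each, 1 had an unadjusted p under 0.05, beside 4410 of 13794, 3003 of 12832 and 1318 of 12064 genes over all. DESeq2 called 0, 0 and 1. That 1 was the bile salt export pump Abcb11, which stood at -0.29 ± 0.13, -0.27 ± 0.10 and -0.43 ± 0.12 in the edgeR fits of fresh-frozen, FFPE 18 h and FFPE 3 wk livers (adjusted p = 0.155, 0.114 and 0.143). Of 7 genes induced by LXR, the receptor that oxysterols activate, 1 fell in fresh-frozen and 1 in FFPE 18 h livers, where 7.47% and 4.47% of all genes fell. Mylip fell by 0.47 on the log2 scale (SE 0.09) in fresh-frozen livers (adjusted p = 0.0121). Srebf1 fell by 0.49 on the log2 scale (SE 0.12) in FFPE 18 h livers (adjusted p = 0.0218). DESeq2 called Mylip and Srebf1 lower in fresh-frozen and Srebf1 in FFPE 18 h livers. In FFPE 3 wk livers none of the 7 passed with edgeR (3 at an unadjusted p under 0.05, beside 1318 of 12064 genes) and DESeq2 called Srebf1 lower. Among 11 clock factors 1 rose and 1 fell in fresh-frozen livers and 1 rose in FFPE 18 h livers, beside 15.7% and 8.39% of all genes that passed in either direction. None passed in FFPE 3 wk livers with edgeR (3 at an unadjusted p under 0.05, beside 1318 of 12064 genes), and DESeq2 called Arntl higher. The clock activator Arntl rose by 2.12 ± 0.31 on the log2 scale in fresh-frozen (adjusted p = 0.00611) and by 1.65 ± 0.38 in FFPE 18 h livers (adjusted p = 0.0173), and Hlf fell by 0.38 on the log2 scale (SE 0.10) in fresh-frozen livers (adjusted p = 0.0364). Dbp, an activator of Cyp7a1 that follows the clock, stood at -0.39 ± 0.16 (adjusted p = 0.133). Cyp7a1 has a strong daily rhythm, and the labels give the time after the dose but no clock time.

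The furan responses of the 10 members did not pass a test of difference between kinds of piece. None of 10 passed the interaction of treatment and piece in FFPE 18 h minus fresh-frozen, FFPE 3 wk minus fresh-frozen or FFPE 3 wk minus FFPE 18 h (edgeR). None had an unadjusted p under 0.05 in these 30 tests, and none passed with DESeq2 or with the animal as a block. Over all genes 0% passed in each of these interactions with edgeR (455, 590 and 891 genes at an unadjusted p under 0.05), and 1, 43 and 97 genes passed with DESeq2. For Cyp46a1 the difference in log2 fold change was -0.13 ± 0.28, -0.14 ± 0.29 and -0.05 ± 0.25 in that order of comparisons. For Cyp27a1 it was 0.12 ± 0.16, -0.13 ± 0.19 and -0.28 ± 0.17. The errors were wide for Cyp7a1 (0.15 ± 0.63 for FFPE 18 h minus fresh-frozen) and Nr0b2 (0.42 ± 0.59), so like responses are not shown by these tests.

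Per kilobase of transcript, which makes genes comparable, Slc27a5 was the highest and Nr0b2 the lowest member in fresh-frozen livers. Levels in fresh-frozen furan livers were 449 ± 49.2 CPM per kb for Slc27a5 (SD, n = 3), 252 ± 13.6 for Hsd3b7, 181 ± 14.4 for Cyp27a1 and 129 ± 38.8 for Cyp8b1. Below them came Baat at 95.2 ± 3.10, Nr1h4 at 59.4 ± 5.89, Cyp46a1 at 47.7 ± 12.7, Cyp7a1 at 25.6 ± 7.93, Cyp7b1 at 20.9 ± 6.16 and Nr0b2 at 7.99 ± 2.23 CPM per kb. In fresh-frozen control livers Slc27a5 had 551 ± 28.9, Cyp8b1 135 ± 15.7, Cyp46a1 111 ± 22.8 and Baat 103 ± 5.45 CPM per kb (SD, n = 3). By its mean Cyp46a1 stood below Baat and Nr1h4 with furan, where its range over libraries overlapped that of Nr1h4, and between Cyp8b1 and Baat in controls. Neighbours whose ranges over libraries overlapped in controls were Hsd3b7 and Cyp27a1, Cyp8b1 and Cyp46a1, Cyp46a1 and Baat, Nr1h4 and Cyp7a1, and Cyp7a1 and Cyp7b1.

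The kind of piece also changed member levels in control livers, as it did those of many genes. These fits did not pair the pieces of the same animal, and the animal as a block was an alternative. RNA integrity numbers were 1.3 to 2.4 for FFPE and above 8.9 for frozen RNA, per the labels. Between FFPE 18 h and fresh-frozen pieces 7 of 10 members passed, 5 higher and 2 lower in FFPE, where 68.0% of 13034 genes passed (34.2% higher and 33.8% lower). Between FFPE 3 wk and fresh-frozen pieces 4 of 10 passed, 3 higher and 1 lower, where 26.2% of 12145 genes passed (13.2% higher and 13.0% lower). Cyp46a1 averaged 235 ± 48.3 CPM in fresh-frozen (SD, n = 3), 398 ± 58.2 CPM in FFPE 18 h (n = 4) and 482 ± 70.4 CPM in FFPE 3 wk control pieces (n = 4). It was higher in FFPE than in fresh-frozen pieces by 0.82 ± 0.16 on the log2 scale at 18 h (adjusted p = 0.00117) and by 1.08 ± 0.17 at 3 wk (adjusted p = 0.00182). Nr1h4 was higher by 0.90 ± 0.10 and 0.93 ± 0.13 (adjusted p = 1.80e-05 and 0.000825).

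Slc27a5 went the other way and was lower at each longer time of fixation. It averaged 1260 ± 66.1 CPM in fresh-frozen (SD, n = 3), 891 ± 55.2 CPM in FFPE 18 h (n = 4) and 482 ± 59.8 CPM in FFPE 3 wk control pieces (n = 4). The log2 difference was -0.44 ± 0.08 for FFPE 18 h over fresh-frozen, -1.34 ± 0.11 for FFPE 3 wk over fresh-frozen and -0.89 ± 0.10 for FFPE 3 wk over FFPE 18 h (adjusted p = 0.000762, 4.04e-05 and 0.000324). Cyp27a1 was higher in FFPE 18 h than in fresh-frozen pieces (0.59 ± 0.12, adjusted p = 0.00158) and lower in FFPE 3 wk than in FFPE 18 h pieces (-0.72 ± 0.10, adjusted p = 0.00128). It and Slc27a5 were the 2 members of 10 that passed between the FFPE times, both lower at 3 wk, where 10.6% of 12242 genes passed (4.27% higher and 6.28% lower). Cyp7b1 and Hsd3b7 did not pass between any kinds of piece.

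Cyp7a1 was lower in FFPE 18 h than in fresh-frozen control pieces, with a log2 difference of -1.56 ± 0.47 (adjusted p = 0.0145), a call that was lost without fresh-frozen control animal 06 (-0.77, adjusted p = 0.0864) and with robust dispersions (adjusted p = 0.0574). Between FFPE 3 wk and fresh-frozen pieces it stood at -1.17 ± 0.54 (adjusted p = 0.154) and passed with the animal as a block (-1.34, adjusted p = 0.00208). Cyp8b1 and Nr0b2 were higher in FFPE 18 h than in fresh-frozen control pieces by 0.47 ± 0.15 and 1.29 ± 0.52 (adjusted p = 0.0181 and 0.0487). Cyp8b1 lost that call without fresh-frozen control animals 04 or 06 (adjusted p = 0.0654 and 0.0723), with no filter on low counts (0.0646) and in 1 model of all 6 groups (0.192). Nr0b2 lost it without fresh-frozen control animals 04 or 06 (adjusted p = 0.154 and 0.130) and without FFPE 18 h control animals 02 or 03 (adjusted p = 0.176 and 0.0515) or 06, where the adjusted p lay just above the threshold of 0.05. Nr0b2 also lost it with DESeq2 (adjusted p = 0.101), no filter (0.0553) and robust dispersions (0.0940). Baat was higher in FFPE 3 wk than in fresh-frozen pieces by 0.46 ± 0.15 (adjusted p = 0.0477), but not with the animal as a block (adjusted p = 0.0603), no filter (0.0898) or the 1 CPM filter (0.0621), nor without any 1 of the control libraries other than that of animal 06 in FFPE 3 wk (adjusted p from 0.100 to 0.198). Between FFPE 3 wk and FFPE 18 h pieces Cyp8b1 stood at -0.45 ± 0.15 (adjusted p = 0.0887) and passed with the animal as a block (adjusted p = 0.0242).

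**Figure D4:**
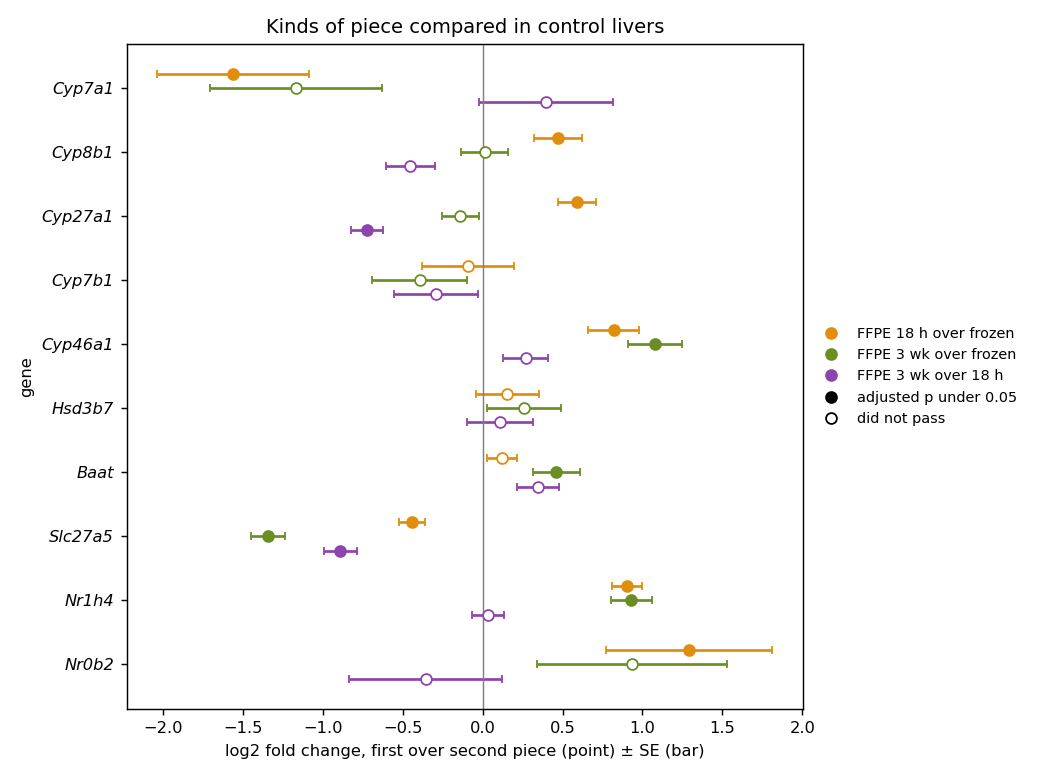
Fitted log2 difference between kinds of piece in control livers (horizontal axis; points, bars are ± SE) for FFPE 18 h over fresh-frozen, FFPE 3 wk over fresh-frozen and FFPE 3 wk over FFPE 18 h; filled points have an adjusted p under 0.05. Cyp46a1 and Nr1h4 lie above 0 in both FFPE times against fresh-frozen pieces, and Slc27a5 lies below 0 in all 3 comparisons.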

How the data were processed

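Poly(A)-selected RNA-seq of mouse liver was used as deposited: raw counts per gene symbol that the authors made with CASAVA 1.8.2, STAR 2.3.0, mouse build mm9 and featureCounts 1.4.4, per the submitters' processing notes, with strand setting and treatment of shared reads not given in the sources used here. Of the 24 columns, 22 matched a labelled animal and kind of piece, and 2 matched none and were not used. Genes were filtered with filterByExpr, scaled with TMM and tested with the quasi-likelihood F test of edgeR 4.0.16 (R 4.3.3) on the libraries of each comparison, over the whole table, with Benjamini-Hochberg adjustment. Standard errors were derived from F, as log2 fold change divided by its square root, without sign. The fits were tested on simulated counts. Alternatives were DESeq2 1.42.0, RLE scaling, no filter, a filter at 1 CPM, robust dispersions, 1 model of all 6 groups, thinning to 3666173 counts, the animal as a block and each library left out. Added after seeing the data were FFPE 18 h without the pair highest in Rn45s, FFPE 3 wk without the shallowest pair, and either FFPE time in the 6 animals that have a fresh-frozen library.

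The members and gene lists were chosen with earlier results of these data known. Named beside the 10 members were listed pathway genes that passed a furan comparison, and the 4 genes most like Cyp7a1, Cyp7b1 and Nr0b2. Pathway genes named without a call (Cyp39a1, Akr1d1, Fgfr4, Klb, Nr5a2, Abcb11 and Dbp) were chosen for their role after their values were seen. Replicates are separate animals per the labels. Pieces pair by animal number, since each liver was divided. Deviations from group means of 1 animal's pieces correlated across genes at r from 0.308 to 0.489 (fresh-frozen and FFPE 18 h), 0.0442 to 0.150 (fresh-frozen and FFPE 3 wk) and 0.00459 to 0.151 (both FFPE times). No r was computed between pieces of different animals, so these values do not test the pairing. No 2 libraries of a group were duplicates (lowest chi-square per degree of freedom 9.73). Transcript lengths and overlaps are from GENCODE M21 (GRCm38), promoters from RefSeq (GRCm38.p6), later builds than mm9, so no coordinate of the count table was used.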

Additional observations from a re-analysis of the deposited data

Results flagged for a closer look

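In 3 of 40 sets of 4 FFPE libraries, 1 library stood apart from the other 3 by Dixon's test at the 95% level, which chance alone gives in about 1 of 20. Nr0b2 in FFPE 18 h was 29.9 CPM in control animal 02 and 8.33 to 11.7 CPM in the other 3 controls. Slc27a5 in FFPE 18 h was 973 CPM in control animal 06, the library with most Rn45s, and 858 to 871 CPM in the other 3 controls. Cyp27a1 in FFPE 18 h was 460.3 CPM in furan animal 44 and 556 to 574 CPM in the other 3 furan animals. No difference in furan response between kinds of piece passed its test for a member.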

How the results depend on the processing

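The fall of Cyp46a1 with furan kept its call under all 13 alternatives in fresh-frozen livers and all 17 at each FFPE time, with log2 fold changes of -1.41 to -1.02, -1.48 to -1.20 and -1.48 to -1.22. The number of members that passed moved in fresh-frozen livers from 2 to 3 with DESeq2 and to 1 in 1 model of all 6 groups. At FFPE 18 h it moved from 2 to 4 with no filter on low counts, to 3 without the pair highest in Rn45s, and to 1 in 1 model, 1 after thinning and 1 in the 6 animals that have a fresh-frozen library. In FFPE 3 wk livers it moved from 1 to 2 with DESeq2, RLE scaling, no filter or robust dispersions, and to 4 in 1 model. With 1 library left out it was 1 to 3 in fresh-frozen, 1 to 2 in FFPE 18 h and 1 to 2 in FFPE 3 wk livers, and 4 to 7, 3 to 4 and 2 to 3 between kinds of piece in control livers (FFPE 18 h and FFPE 3 wk over fresh-frozen, FFPE 3 wk over FFPE 18 h). The interactions gave 0 members under every alternative run. Over all genes, furan calls numbered 138, 225 and 2030 in 1 model (fresh-frozen, FFPE 18 h, FFPE 3 wk), against 2162, 1077 and 99. They numbered 746, 682 and 113 after thinning every library to 3666173 counts, and 369 with DESeq2 and 194 with no filter in FFPE 3 wk livers. In the 6 animals they numbered 594 (FFPE 18 h) and 19 (FFPE 3 wk), and 12 without the shallowest FFPE 3 wk pair. With 1 library left out they were 864 to 1620, 633 to 1285 and 17 to 173. Between kinds of control piece, 1 model called 5769, 6028 and 3477 genes, against 8867, 3188 and 1292, and DESeq2 called 2140 in the last. With the animal as a replicate block, 7, 4 and 3 members passed between kinds of control piece, and no call changed other than those of Cyp7a1, Baat and Cyp8b1 given above. No paired analysis was possible within furan and control of 1 kind of piece, which share no animal.

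Of 1202 member values recomputed, 1081 kept direction and side of the threshold, 22 gained and 36 lost the call, and 63 changed sign, with 0 of these 63 past the threshold in either fit. With 1 library left out, the furan log2 fold change ran from -0.32 to 0.078 for Cyp8b1, -0.44 to 0.14 for Cyp7b1 and -0.22 to 0.10 for Hsd3b7 in fresh-frozen livers. In FFPE 18 h livers it ran from -0.20 to 0.033 for Hsd3b7 and -0.11 to 0.23 for Cyp7b1, and in FFPE 3 wk livers from -0.17 to 0.11 and -0.20 to 0.20. The difference in furan response between FFPE 18 h and fresh-frozen ran from -0.66 to 0.49 for Cyp7a1, -0.00082 to 0.19 for Cyp27a1, -0.30 to 0.094 for Cyp46a1 and -0.23 to 1.01 for Nr0b2. Between FFPE 3 wk and fresh-frozen it ran from -0.37 to 0.041 for Cyp46a1, -0.43 to 0.65 for Nr0b2 and -0.41 to 0.71 for Cyp7a1. Between FFPE 3 wk and FFPE 18 h it ran from -0.17 to 0.084 for Cyp46a1, -0.12 to 0.51 for Cyp7a1 and -0.80 to 0.17 for Nr0b2. In control livers the FFPE 18 h over fresh-frozen value ran from -0.29 to 0.26 for Cyp7b1 and -0.0037 to 0.33 for Hsd3b7. FFPE 3 wk over fresh-frozen ran from -0.13 to 0.090 for Cyp8b1. FFPE 3 wk over FFPE 18 h ran from -0.77 to 0.22 for Nr0b2, -0.046 to 0.25 for Hsd3b7 and -0.032 to 0.072 for Nr1h4. In the 6 animals the furan value was 0.023 for Cyp8b1 (FFPE 18 h), -0.10 for Cyp7b1 and 0.064 for Hsd3b7 (both FFPE 3 wk). It was -0.15 for Cyp7b1 without the pair highest in Rn45s (FFPE 18 h) and 0.12 for Hsd3b7 without the shallowest pair (FFPE 3 wk). In control pieces Cyp7a1 gained the call in 1 model (FFPE 3 wk over fresh-frozen), as did Baat in 1 model and without animal 06 in FFPE 3 wk, and Cyp8b1 without animal 06 in FFPE 18 h or 03 in FFPE 3 wk (all FFPE 3 wk over FFPE 18 h). In 1 model Cyp7b1 was -0.015 with furan (FFPE 3 wk) and Cyp8b1 -0.032 in FFPE 3 wk over fresh-frozen control pieces. With the replicate block that Cyp8b1 value was -0.10, with no filter -0.038 and with the 1 CPM filter -0.0094, and Baat was -0.0092 in FFPE 18 h over fresh-frozen with no filter. With the block, the differences in response were -0.18 for Cyp7a1 and 0.0097 for Cyp46a1 (FFPE 18 h minus fresh-frozen), and 0.017 for Cyp46a1 and -0.043 for Nr0b2 (FFPE 3 wk minus fresh-frozen). The cause of these changes was not tested.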
